A study of Rattus norvegicus with 6 samples.

Results

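Cxcl1, Cxcl2, Cxcl3, Cxcl6, Cxcl12, Cxcl16 and Cxcr4 were followed in rat myocardium after ischemia and reperfusion. They are 7 of the 28293 genes in the deposited expression table. They were chosen by name, with the values of this comparison already known, so their differences between groups are described and not tested. The table held 3 libraries from the sham group and 3 from the MI/RI group (myocardial ischemia/reperfusion injury), all of wild-type male rats. In the MI/RI group the left anterior descending coronary artery was tied for 30 min and the heart was taken after 6 h of reperfusion. The sham group had sham surgery, and its labels carry the same 30 min and 6 h. Strain and age, the part of the heart taken and any vehicle injection are not given for these libraries in the sources used here. Each library is labelled as a separate sample of its group, but no label says that it came from a separate animal, so p-values measure the spread between these samples.

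CXC chemokines are small secreted proteins that draw leukocytes along a gradient. Those with a Glu-Leu-Arg (ELR) motif before the CXC cysteines, here Cxcl1, Cxcl2, Cxcl3 and Cxcl6, bind Cxcr2 and are known as neutrophil attractants. Cxcl12 lacks the motif and signals through Cxcr4, a pair known for holding neutrophils and progenitors in the bone marrow, and Cxcl16 is a membrane-anchored ligand of Cxcr6 that can be shed. In the infarcted heart, neutrophils are known to enter within hours of reperfusion.

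Levels are FPKM, fragments scaled for transcript length and library size, and can be set side by side between genes. Depth was not given, but the FPKM values fell in whole steps that gave fragments per gene and relative depths of 0.873 to 1.18. The share of mitochondrially encoded mRNAs in the summed FPKM was 80.1% to 86.2% in sham libraries and 61.8% to 71.5% in MI/RI libraries. The median log2 difference of the 10942 genes tested was 0.29, and 32.9% of them passed the limma test in either direction. Cardiomyocyte markers were present in every library, with a summed FPKM of 3465 to 11364 for the sham rats and 23353 to 33681 for the MI/RI rats, and the sham sum was highest in replicate 1.

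The promoters of 3 ELR+ ligands are shown because each carries a match to the binding consensus of NF-kB, a factor known to drive these genes. They are the 250 bases before the annotated start in RefSeq (GRCr8), all from the minus strand and written 5′ to 3′, with the NF-kB matches in capitals. Cxcl1 lies at chr14:17479322-17479571, Cxcl2 at chr14:17467256-17467505 and Cxcl6 at chr14:17596418-17596667.
Cxcl1: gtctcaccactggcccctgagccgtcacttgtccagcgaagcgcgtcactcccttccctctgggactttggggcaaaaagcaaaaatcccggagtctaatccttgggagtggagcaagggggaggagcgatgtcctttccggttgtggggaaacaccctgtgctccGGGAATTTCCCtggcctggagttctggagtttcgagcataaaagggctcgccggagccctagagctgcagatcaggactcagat
Cxcl2: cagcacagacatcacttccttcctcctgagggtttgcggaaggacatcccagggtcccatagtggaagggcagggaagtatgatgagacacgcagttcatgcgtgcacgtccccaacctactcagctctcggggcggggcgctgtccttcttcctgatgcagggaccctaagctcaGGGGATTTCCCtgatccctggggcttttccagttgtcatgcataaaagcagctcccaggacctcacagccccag
Cxcl6: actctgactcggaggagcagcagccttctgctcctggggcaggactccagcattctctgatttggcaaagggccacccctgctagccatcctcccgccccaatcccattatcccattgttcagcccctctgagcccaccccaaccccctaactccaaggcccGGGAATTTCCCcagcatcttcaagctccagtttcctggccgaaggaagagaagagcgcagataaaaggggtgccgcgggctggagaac
The overlapping matches ran from −84 to −74 in Cxcl1, from −74 to −64 in Cxcl2 and from −88 to −78 in Cxcl6, counted back from the start. On either strand, the consensus was found in 6.33% of 33469 windows of this length. Of the 7 genes, 6 had a window, and those of Cxcl12, Cxcr4 and Cxcl16 held no match. The AP-1 letters TGANTCA, present in 6.34% of windows, were in none of the 6. The core of the hypoxia response element (ACGTG or GCGTG, either strand), present in 36.7% of windows, occurred 3 times in Cxcl2 and once each in Cxcl12 and Cxcr4. The match is not particular to the ELR+ ligands. Of the other CXC ligands, receptors and partners, 14 had a window, and those of Cxcl10, Cxcl11 and Cd74 also held the NF-kB consensus. A match describes letters and not binding.

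**Figure D1:**
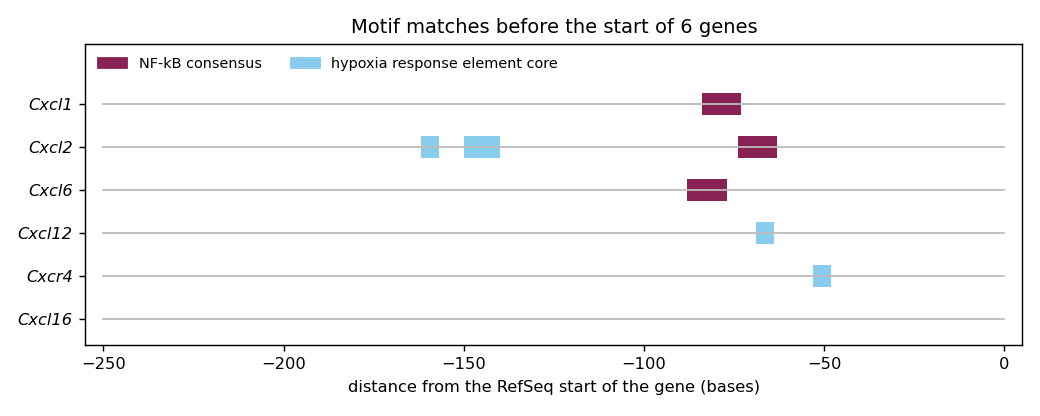
Motif matches in the 250 bases before the start of 6 genes, with distance from the start in bases on the x axis and 1 line per gene. The NF-kB matches of Cxcl1, Cxcl2 and Cxcl6 lie between −88 and −64, the other 3 lines carry none, and cores of the hypoxia response element lie on the lines of Cxcl2, Cxcl12 and Cxcr4.

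Cxcl1 went from near the floor of the table to the most abundant of the 7 genes. In replicate order, its FPKM was 0.590, 0.539 and 0.976 for sham and 56.0, 99.3 and 102.1 for MI/RI, and the same order is kept for the genes below. Every MI/RI library stood far above every sham library, and MI/RI replicate 1 was the lowest of its group. The means were 0.702 ± 0.239 and 85.8 ± 25.8 (SD, n = 3 each), a ratio of 122. The difference on the log2(FPKM + 0.1) scale was 6.73 with an SE of 0.31. Behind these values were 99 sham fragments and 9819 MI/RI fragments, and the 95% exact interval of the depth-scaled ratio was 100 to 151, which covers counting error only. In bulk tissue, a change in the number of cells of a type and a change in RNA per cell cannot be told apart. This holds for every gene below.

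Cxcl2, known as an early product of macrophages and neutrophils, was also near the floor of the table in the sham group and higher after reperfusion, at a lower level than Cxcl1. Its FPKM was 0.0442, 0 and 0.117 in the sham libraries and 6.23, 11.5 and 8.57 in the MI/RI libraries. The groups did not overlap, and sham replicate 2 was listed at 0. The log2 difference was 5.88 (SE 0.36), from 4 sham fragments and 537 MI/RI fragments. With so few sham fragments the ratio of 166 had a counting interval of 64.3 to 610.

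Cxcl3, a close relative of Cxcl1 and Cxcl2, was listed at 0 in sham replicates 2 and 3 and at 0.106 in sham replicate 1. The MI/RI libraries were at 0.747, 3.86 and 4.94, all above the sham libraries but widely spread. MI/RI replicates 2 and 3 held 5.17 and 6.61 times the level of replicate 1, where the same ratios for Cxcl1 were 1.77 and 1.82. The log2 difference was 4.33 (SE 0.66), from 7 and 568 fragments, and the depth-scaled ratio of 100 had a counting interval of 48.3 to 250. Cxcl1, Cxcl2 and Cxcl3 are near-identical copies in part, and how the authors counted fragments shared between copies is not given in the sources used here, so the split of fragments between them is uncertain.

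Cxcl6, the remaining ELR+ ligand of the 7 genes, stayed low and was under the filter of a mean FPKM of 0.5. Its FPKM was 0.0139, 0.0587 and 0 in the sham libraries and 0.0635, 0.563 and 0.456 in the MI/RI libraries. The groups did not overlap only by a small margin, since MI/RI replicate 1 held 4 fragments and sham replicate 2 held 5 before scaling for depth. The log2 difference was 1.69, and the depth-scaled ratio of 14.6 had a counting interval of 6.38 to 41.1 from 6 and 71 fragments. MI/RI replicates 2 and 3 stood at 8.87 and 7.18 times the level of replicate 1, which was the lowest of its group for Cxcl3 too.

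**Figure D2:**
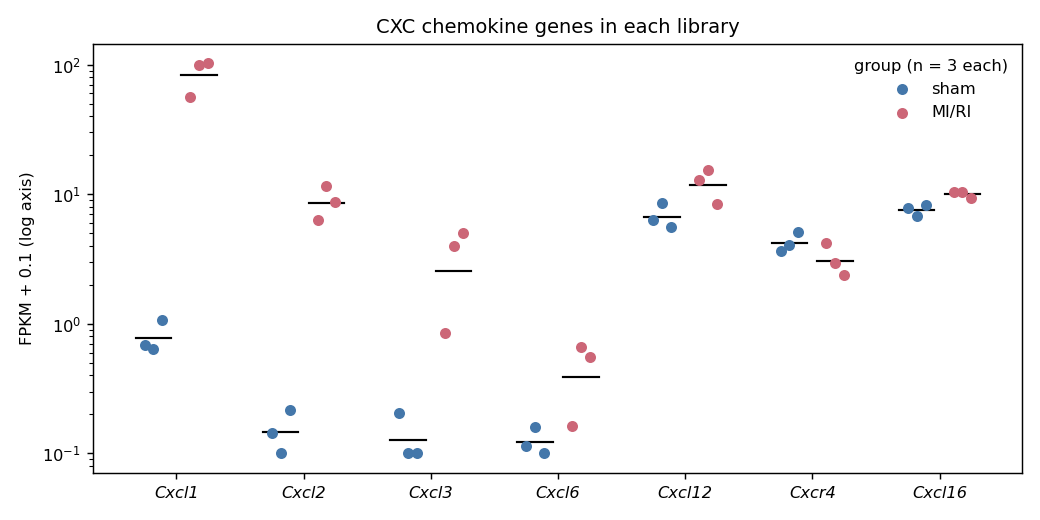
FPKM of the 7 genes in each library, drawn as FPKM + 0.1 on a log axis, with 1 point per library and a line at each group's mean on that scale. The MI/RI libraries lie above all sham libraries for Cxcl1, Cxcl2, Cxcl3, Cxcl6 and Cxcl16, and the groups overlap for Cxcl12 and Cxcr4.

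Cxcl12, made by stromal and endothelial cells in many tissues, was already present in the sham group. Its FPKM was 6.21, 8.43 and 5.48 there and 12.7, 15.2 and 8.26 in the MI/RI group. The groups overlapped, because MI/RI replicate 3 lay below sham replicate 2. The log2 difference was 0.82 (SE 0.28), and the means were 6.71 ± 1.53 and 12.1 ± 3.53 (SD, n = 3 each). It depended on scaling: with quantile normalization the difference was 0.25, and with the samples rescaled over genes other than the mitochondrial mRNAs it was 0.04.

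In the values as deposited, Cxcr4, the receptor of Cxcl12, was the only gene of the 7 with a lower mean after reperfusion. Its FPKM was 3.52, 3.97 and 5.04 in the sham libraries and 4.10, 2.83 and 2.27 in the MI/RI libraries. The groups overlapped, since MI/RI replicate 1 exceeded sham replicates 1 and 2. The log2 difference was −0.46 (SE 0.27) and was −1.22 after rescaling without the mitochondrial mRNAs.

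Cxcl16 had FPKM values of 7.70, 6.71 and 8.14 under sham surgery and 10.3, 10.3 and 9.32 after reperfusion. The groups did not overlap, and the spread within each was small. The log2 difference of 0.41 (SE 0.21) lay close to the median of 0.29 over all genes tested, and its direction turned under other scalings. It was −0.15 with quantile normalization and −0.37 without the mitochondrial mRNAs.

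Across the 7 genes, 5 were higher without overlap between groups and 0 were lower without overlap. Over the 10942 genes tested, 37.2% were higher without overlap and 13.0% were lower. The median log2 difference of the 7 genes was 1.69, beside 0.29 over all genes tested. That 1.69 is the value of Cxcl6, which was under the filter, and the median of the 6 genes that passed it was 2.57. Cxcl2 and Cxcl3, with sham means of 0.0536 and 0.0354 FPKM, passed only through their MI/RI libraries (means 8.76 and 3.18). The filter itself thus favours a higher median. Since the genes were named with these values known, nothing is read from the comparison. Rescaling without the mitochondrial mRNAs moved the median of all genes to −0.46, and the differences were then 5.99 for Cxcl1, 5.37 for Cxcl2, 3.96 for Cxcl3 and 1.38 for Cxcl6. The 4 ELR+ ligands kept their direction under each scaling that gave a value. The pseudocount set the size of the low genes' differences: at 1 they were 3.18 for Cxcl2, 1.84 for Cxcl3 and 0.39 for Cxcl6, and at 0.01 they were 7.70, 6.75 and 3.41.

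The order of the levels changed between the groups. In the sham group it was Cxcl16 (7.52 ± 0.733 FPKM, SD, n = 3), Cxcl12 (6.71 ± 1.53), Cxcr4 (4.18 ± 0.782), Cxcl1 (0.702 ± 0.239) and then Cxcl2, Cxcl3 and Cxcl6, all at or under 0.117 in every library. Cxcl16 and Cxcl12 overlapped, as did the last 3 genes. In the MI/RI group Cxcl1 led, followed by Cxcl12 (12.1 ± 3.53), Cxcl16 (9.98 ± 0.574) and Cxcl2 (8.76 ± 2.63), which overlapped with one another. Cxcl3 (3.18 ± 2.17) and Cxcr4 (3.07 ± 0.939) overlapped too, and Cxcl6 (0.361 ± 0.263) was last.

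The makeup of the CXC ligand pool differed accordingly. The FPKM of 14 CXC ligands was summed. Of that sum, the 4 ELR+ ligands among the 7 genes made up 1.44%, 0.644% and 2.20% in the sham libraries. They made up 47.2%, 63.2% and 55.1% in the MI/RI libraries. Ppbp, not among these 4, held 0.129%, 1.72% and 0.119% for sham and 0%, 0% and 0.290% for MI/RI. The whole sum was 49.8 to 92.9 FPKM for sham and 133 to 211 FPKM for MI/RI. Within the sum of the 4 in the MI/RI libraries, Cxcl1 took 86.2% to 88.8% and Cxcl2 7.39% to 9.97%. Cxcl3 took 1.18% to 4.25% and Cxcl6 0.101% to 0.489%. Cxcl1 alone averaged 48.3% ± 6.25 of the 14 ligands there (SD, n = 3), and Pf4, a platelet ligand, averaged 46.6% ± 17.9 for sham and 14.9% ± 7.87 for MI/RI.

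**Figure D3:**
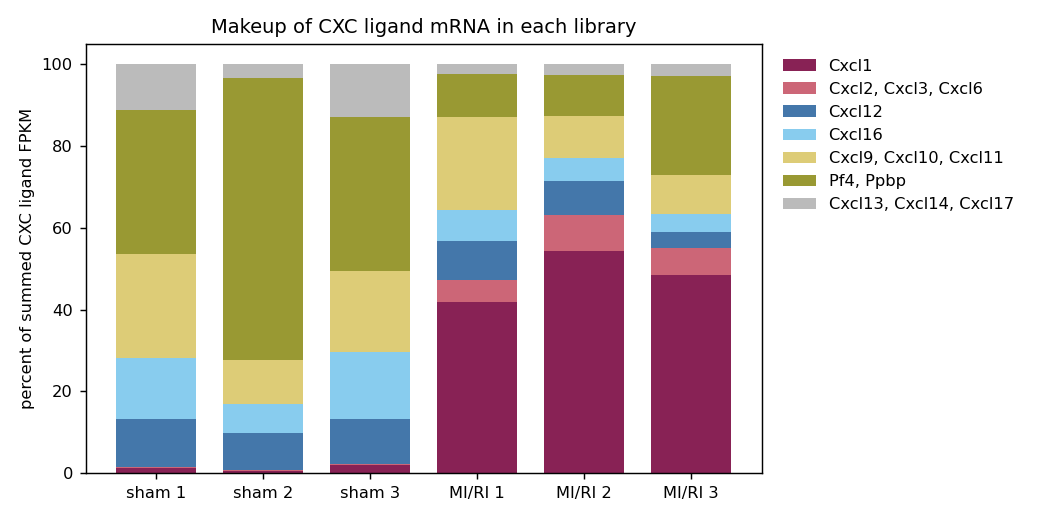
Share of each CXC ligand in the summed FPKM of 14 CXC ligands, in percent, with 1 bar per library. Cxcl1 fills 41.9% to 54.4% of the bars of the MI/RI libraries and at most 1.96% of those of the sham libraries.

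In RefSeq gene order on chromosome 14, Cxcl2, Cxcl1 and Cxcl3 are followed by Pf4, Ppbp and Cxcl6. LOC134481726, which has no values here, lies between Cxcl1 and Cxcl3. Pf4 was at 18.3, 62.4 and 18.7 FPKM in the sham libraries and at 14.0, 18.6 and 50.5 in the MI/RI libraries, with 1 high library in each group. Ppbp, another platelet ligand, reached 1.60 in sham replicate 2 and 0.611 in MI/RI replicate 3, the same libraries that were high for Pf4. Both groups thus overlapped for the 2 genes that lie between Cxcl3 and Cxcl6.

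Profiles most like each gene were sought among at least 10186 genes with a symbol, by the root mean square difference of centred log2 values over the 6 libraries. Cxcl2 (0.469), Selp (0.497) and Il6 (0.537) were nearest to Cxcl1, and Il6 (0.439), Cxcl1 (0.469) and Selp (0.546) to Cxcl2. Selp encodes P-selectin, an adhesion molecule of endothelium and platelets, and Il6 an inflammatory cytokine. For genes with such large differences, this distance mostly follows the size of the group difference, which was known when the genes were chosen. Selp and Il6 had log2 differences of 6.08 and 5.91, and shared regulation was not tested. Csf3, the neutrophil growth factor G-CSF, was nearest to Cxcl3 (0.419), with Mt2A (0.645) and Ptx3 (0.790) next. Il1rn (0.216), S100a9 (0.314) and Fgl2 (0.338) were nearest to Cxcl6. The nearest genes were Gpr4 (0.0820), Tm2d2 (0.107) and Chd7 (0.115) for Cxcl12, Tada1 (0.0883), Gpam (0.107) and Rai2 (0.117) for Cxcr4, and Kat14 (0.0434), Utp3 (0.0685) and Snx8 (0.0699) for Cxcl16.

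Of the other CXC ligands, receptors and partners, 17 were in the table and 11 passed the filter. With limma, 5 of the 11 rose and 1 fell at an adjusted p under 0.05, beside 25.5% and 7.36% of all genes tested, and their median log2 difference was 0.78. Cxcl10, an interferon-induced ligand of Cxcr3, rose by 2.44 (SE 0.23, limma adjusted p = 0.00051), Cd74, a receptor for Mif, by 1.73 (adjusted p = 0.0033), and Ackr3, a scavenger of Cxcl12, by 1.42 (adjusted p = 0.0029). Cxcl11, another Cxcr3 ligand, rose by 1.54 (limma adjusted p = 0.018), and Mif, a cytokine that binds Cxcr2 and Cxcr4, by 1.28 (adjusted p = 0.014). Cxcr3, a receptor of activated T cells, fell by 1.64 on the log2 scale (limma adjusted p = 0.016). The limma adjusted p of Cxcl11 was 0.073 without sham replicate 2 and 0.064 without sham replicate 3, that of Mif 0.063 and 0.058, and that of Cxcr3 0.069 without sham replicate 3. Rescaling without the mitochondrial mRNAs gave an adjusted p of 0.068 for Ackr3, 0.087 for Cxcl11 and 0.14 for Mif, and quantile normalization one of 0.41 for Mif. With no filter on low values, Cxcl10 and Ackr3 still passed.

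Cxcl9, Cxcl13, Cxcl14, Pf4 and Ackr1 did not pass the test, with limma log2 differences of 0.41, −0.05, 0.51, −0.23 and 0.78. Apart from Ackr1, their signs did not hold. Cxcl9 was at −0.17 with quantile normalization and −0.37 without the mitochondrial mRNAs, and Cxcl13 at 0.14 as TPM. Without sham replicate 2, Cxcl14 was at −0.95, Pf4 at 0.35 and Cxcl13 at 0.24. The mean FPKM of Cxcl14 was 2.76 ± 2.31 for sham and 2.59 ± 1.76 for MI/RI (SD, n = 3 each), the opposite order to its log2 difference. Ackr1, a chemokine-binding receptor of venules, missed it at an adjusted p of 0.059 and passed with the replicate number as a block (adjusted p = 0.039). It also passed as TPM (adjusted p = 0.023) and without MI/RI replicate 1 (adjusted p = 0.031). Cxcr2, the receptor of the ELR+ ligands, was under the filter, with 0.212, 0.114 and 0.0381 FPKM in the sham libraries and 0.242, 0.386 and 0.464 in the MI/RI libraries. The MI/RI libraries lay above the sham libraries, though by little in MI/RI replicate 1. Cxcr6, the receptor of Cxcl16, was under the filter too. It had 0.320, 0.481 and 0.320 FPKM in the sham libraries and 0.142, 0.169 and 0.286 in the MI/RI libraries, lower without overlap. Cxcr1, Cxcr5, Cxcl17 and Ppbp were also under the filter.

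**Figure D4:**
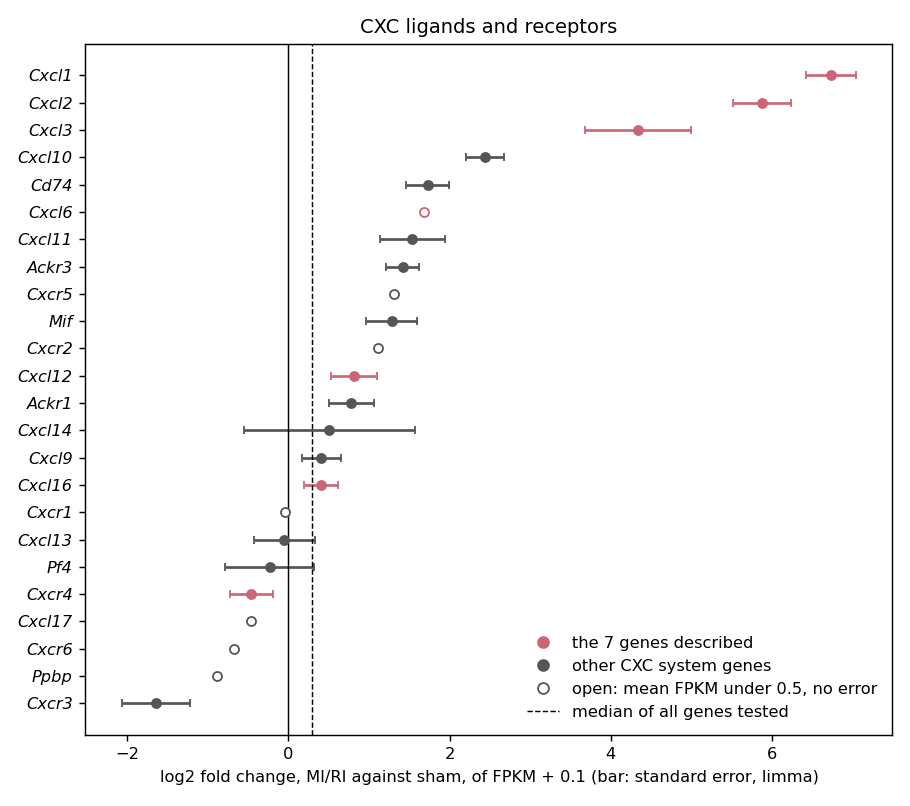
Log2 difference between the MI/RI and sham groups for the 7 genes and the other CXC genes in the table, with bars of 1 SE from limma, open points for genes under the filter and a dashed line at the median of all genes tested. Cxcl1 and Cxcl2 lie furthest to the right at 6.73 and 5.88, and Cxcr3 furthest to the left at −1.64.

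Genes known to induce these chemokines, or to form or restrain NF-kB, also differed, and the counts do not separate these roles. Of 28 inducers and NF-kB genes, 19 passed the filter, of which 13 rose and 1 fell with limma, beside 25.5% and 7.36% of all genes tested, and their median log2 difference was 1.52 beside 0.29. Il6 rose by 5.91 (SE 0.32, limma adjusted p = 1.6e-05), Il1b, the interleukin that signals to NF-kB, by 2.90 (adjusted p = 0.00084) and Relb, an NF-kB subunit, by 2.35 (adjusted p = 0.0005). Irak4, a kinase of the same route, fell by 0.90 on the log2 scale (limma adjusted p = 0.027), a call that was lost on leaving out sham replicate 2 or 3 or MI/RI replicate 2 or 3 (adjusted p = 0.082, 0.092, 0.067 and 0.066) or as TPM (0.075). Il6 passed the filter only through its MI/RI libraries, with means of 0.00967 FPKM for sham and 6.62 for MI/RI, so this count leans toward a rise. Tnf, Tlr2 and Tlr4 were under the filter, and Il17a was listed at 0 in every library. The groups overlapped for Tnf and Tlr4. Tlr2 was higher without overlap, at 0.136, 0.184 and 0.198 FPKM for sham and 0.548, 0.740 and 0.802 for MI/RI.

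ELR+ ligand mRNAs are known for AU-rich elements that set their decay. Of 13 decay-related genes, known to destabilize or stabilize such mRNAs, 11 passed the filter. With limma, 5 of the 11 rose and 1 fell, against the same 25.5% and 7.36%. The median log2 difference of the 11 was 0.69 against 0.29, and the counts do not separate these roles. Zfp36, which binds such elements and promotes decay, rose by 2.77 (SE 0.46, limma adjusted p = 0.0039), the RNase gene Zc3h12a by 2.23 (adjusted p = 0.0014) and the kinase gene Mapkapk2 by 1.95 (adjusted p = 0.0036). Traf3ip2 fell by 0.97 on the log2 scale (limma adjusted p = 0.042), and leaving out any single library other than sham replicate 1 ended that call, with adjusted p from 0.061 to 0.13, as did TPM (0.088). Of 21 genes of chemokine processing, display and receptor regulation, 18 passed the filter, of which 7 rose and 0 fell with limma, again beside 25.5% and 7.36%. The median log2 difference of the 18 was 0.60 beside 0.29. At an unadjusted limma p under 0.05, 10 were higher and 0 lower. The share of all genes at that unadjusted level was not computed, so nothing is read from this count. The proteoglycan genes Sdc4 and Gpc1 rose by 2.55 and 2.25 (limma adjusted p = 0.0011 and 0.012), and the G protein regulator Rgs2 by 2.14 (adjusted p = 0.004). The adjusted p of Gpc1 was 0.054 without sham replicate 2.

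Markers of the cells that these ligands draw were measured in the same libraries. Of 12 neutrophil markers 5 passed the filter and 4 of those rose with limma, where 25.5% of all genes tested did. The filter took the mean of both groups, so a marker low in the sham group could pass through its MI/RI level. Csf3r passed in this way (means of 0.258 FPKM for sham and 0.744 for MI/RI), and such a count leans toward a rise. The summed FPKM of the 12 was 17.0 to 28.2 for sham and 51.0 to 119 for MI/RI. Mmp8 rose by 2.64, Lcn2 by 2.10 and S100a9 by 1.89 (limma adjusted p = 0.0035, 0.0037 and 0.0057), S100a9 not with quantile normalization (adjusted p = 0.060). Mpo and Ltf were listed at 0 in every library, while Mmp9 and Cxcr2 stand in other lists as well. In the MI/RI group, replicates 2 and 3 held 2.42 and 3.35 times the S100a8 of replicate 1 and 2.13 and 2.72 times its S100a9, the same libraries that were high for Cxcl3 and Cxcl6. Other neutrophil markers differed in this: the ratios were 1.70 and 2.32 for Mmp8, 1.30 and 1.56 for Lcn2 and 1.28 and 4.09 for Csf3r, but 1.12 and 1.02 for Mmp9, 0.933 and 0.849 for Fpr1, 0.133 and 0 for Fpr2 and 0 and 0.248 for Elane. MI/RI replicate 1 differed in other ways too. It had the highest summed cardiomyocyte FPKM of its group (33681 against 24246 and 23353) and the lowest mitochondrial share (61.8% against 70.9% and 71.5%). The part of neutrophils in the chemokine levels was not tested.

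Of 10 monocyte and macrophage markers, 1 rose and 3 fell with limma, and for these and the other marker lists the shares over all genes tested were 25.5% and 7.36%. Their summed FPKM was 98.7 to 107 for sham and 121 to 155 for MI/RI. C1qb rose by 0.78 (limma adjusted p = 0.032), and its difference was −0.062 with quantile normalization. Cd163, a scavenger receptor of resident macrophages, fell by 1.38 (limma adjusted p = 0.0057), Ccr2 by 1.33 (adjusted p = 0.026) and Mrc1 by 0.77 (adjusted p = 0.04). The calls of C1qb and Ccr2 were lost without sham replicate 2 (adjusted p = 0.070 for both) or 3 (0.13 and 0.15), and without MI/RI replicate 3 (0.075 and 0.061). They were also lost without MI/RI replicate 2 for C1qb (0.12) and replicate 1 for Ccr2 (0.062), and that of Mrc1 without any library other than MI/RI replicate 2 (0.054 to 0.12). Cardiomyocyte markers rose for 6 of 7, fibroblast markers for 2 of 7 and endothelial markers for 0 of 7, of which 1 was higher and 1 lower at an unadjusted p under 0.05. Of 6 smooth muscle and pericyte markers, Rgs5 rose and Pdgfrb fell with limma. The call of Pdgfrb was lost without any single library other than MI/RI replicate 1 (adjusted p = 0.060 to 0.18), as TPM (0.19) and at a pseudocount of 0.01 (0.0502), and that of Rgs5 without sham replicate 3 (0.054), with quantile normalization (0.39) and without the mitochondrial mRNAs (0.20). Of the fibroblast markers, Col1a1 lost its call without sham replicate 3 (adjusted p = 0.061) or MI/RI replicate 3 (0.053), and Col1a1 and Tcf21 lost theirs with quantile normalization (0.72 and 0.090) and without the mitochondrial mRNAs (0.72 and 0.15). Of 3 lymphocyte markers that passed the filter, Cd3g alone fell, by 1.25 on the log2 scale (limma adjusted p = 0.014, and 0.059 without sham replicate 3). With limma, 0 of 3 platelet, 0 of 1 red cell and 0 of 3 pan-leukocyte markers passed, and at an unadjusted p under 0.05 the counts were 0, 0 and 1, the last lower. For the counts at an unadjusted p, the share over all genes was not computed. The pan-leukocyte sum was 17.7 to 26.1 FPKM for sham and 17.7 to 22.6 FPKM for MI/RI.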

How the data were processed

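Total RNA of 6 libraries of rat myocardium was sequenced with a stranded library kit. The deposited values are FPKM per gene, made by the authors with STAR and HTSeq per the submitters' processing notes. Tool versions, genome build and depth are not given in the sources used here. Values of 1 symbol were summed. Genes were kept at a mean FPKM of 0.5 or more across all 6 libraries and tested on log2(FPKM + 0.1) with limma 3.58.1 in R 4.3.3 (moderated test with trend, Benjamini-Hochberg over 10942 genes, threshold 0.05). The size of the change of low genes depends on the pseudocount: for Cxcl2, Cxcl3 and Cxcl6 it was smaller at 1 and larger at 0.01 than at 0.1. Fragments were recovered from the steps of the FPKM values, and 99.7% of 3172 genes with low values were whole within a tolerance of 0.01. Those numbers may share a common factor. The recovered fragments were not fitted with a count model. The scripts were tested on simulated data.

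The 7 genes and the gene lists were chosen with earlier results of these data known. The genes named were the 7, the other CXC genes, the 3 genes of each list that rose and the 3 that fell most among those past the threshold, and the 3 most like each of the 7. Markers of 10 cell types were also counted. Deviations of same-numbered sham and MI/RI libraries had r = 0.203, 0.117 and 0.118, but sham replicate 3 and MI/RI replicate 2 also had r = 0.120. These values do not settle whether the numbers are pairs, and no label says so. The main fit left the numbers out, and a fit with the replicate number as a block was run beside it. In all, 17 alternatives were tried.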

Additional observations from a re-analysis of the deposited data

How the results depend on the processing

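The replicate block gave 3085 genes higher and 895 lower over all genes, and it changed the call of Ackr1 and of no other named gene. The pseudocount moved the median log2 difference of the 7 genes from 1.69 to 0.74 at a pseudocount of 1 and to 3.41 at 0.01. With no filter on low values, more genes were tested and fewer were called: over all genes 152 higher and 47 lower, in the CXC list 2 and 0, in the inducer list 6 and 0, in the decay list 1 and 0, in the processing list 1 higher, and in the marker lists 2 and 0. With a filter at a mean FPKM of 5, 166 genes were lower over all genes, 3 higher and 0 lower in the CXC list, 6 and 0 in the inducer list, 0 lower in the decay list and 2 lower in the marker lists.

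Scaling changed the split of the calls over all genes, of which 77.6% were higher as deposited. As TPM, 3449 were higher and 504 lower (87.3% higher), centred on the median 2020 and 1554 (56.5%), with quantile normalization 1441 and 1559 (48.0%), and rescaled without the mitochondrial mRNAs 794 and 2856 (21.8%). As TPM, the inducer and decay lists had 0 lower and the marker lists 3 lower. With quantile normalization the marker lists had 8 higher and 14 lower. Without the mitochondrial mRNAs, the CXC list had 2 higher, the inducer list 8 higher and 3 lower, the decay list 3 higher and 2 lower, the processing list 4 lower and the marker lists 8 higher and 14 lower. Among the 7 genes and the genes called, directions turned under a scaling for Cxcl16 (−0.15 with quantile normalization and −0.37 without the mitochondrial mRNAs), C1qb (−0.062 and −0.00078) and Col1a1 (−0.12 with quantile normalization). Among genes not called they turned for Cxcl9 (−0.17 and −0.37), Cxcl14 (−0.16 without the mitochondrial mRNAs) and Cxcl13 (0.14 as TPM). As TPM, Ackr1 passed (adjusted p = 0.023). The cause was not tested.

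Leaving out 1 library at a time gave 1526 to 2567 genes higher and 305 to 880 lower over all genes, with the lowest counts without sham replicates 3 and 2. The ranges were 3 to 6 higher and 0 to 1 lower in the CXC list, 11 to 13 and 0 to 1 in the inducer list, 4 to 5 and 0 to 1 in the decay list, and 10 to 15 and 1 to 4 in the marker lists. The median of the 7 genes ranged from 1.31 to 2.32. Cxcl6 had no value under quantile normalization. With 4 to 7 sham fragments, the levels of Cxcl2, Cxcl3 and Cxcl6 in the sham group are limited by depth, and so is the size of their ratios.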
